A study of Mus musculus with 11 samples.

Results

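RNA levels of 8 genes that mark mouse eosinophils or build their granules were followed across the airways of control and asthmatic mice. The genes were Prg2, Epx, Siglecf, Il5ra, Ear1, Ear2, Ear6 and Alox15. They were found by matching the Ensembl identifiers of the expression table to these symbols, and all 8 were among the 21899 genes listed. Eosinophils are granulocytes that mature under the cytokine IL-5, leave the blood towards eotaxins through the receptor CCR3, and release cationic granule proteins in allergic airways. Several of these genes are not particular to the lineage in mouse lung. Siglecf, Ear1 and Ear2 are also expressed by resident alveolar macrophages, and Alox15 by airway epithelium.

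The series held 11 libraries of male wild-type BALB/c mice aged 6 to 8 weeks, with tissue taken on day 25. The 3 PBS libraries came from mice given saline only. The 4 OVA/LPS/Vehicle libraries came from mice sensitised by injection of 50 µg ovalbumin with alum on days 0 and 7, challenged through the nose with 5 µg ovalbumin from day 14 to day 17, given 50 ng lipopolysaccharide on days 19 and 21, and given vehicle into the trachea on days 21, 22 and 23. The 4 OVA/LPS/GGsTop libraries came from mice treated in the same way with 0.5 mg/kg GGsTop, an inhibitor of gamma-glutamyl transferase, in place of vehicle. Since both OVA/LPS groups had ovalbumin and lipopolysaccharide together, the effects of these agents cannot be told apart. The OVA/LPS/Vehicle libraries were numbered 12, 34, 56 and 78, and whether each number stands for pooled mice was not stated. The labels name trachea as the tissue, whereas the methods describe bluntly dissected lung airways without the trachea.

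Values were FPKM, fragments scaled for exon length and library size, which can be compared between genes per unit length. The libraries held 14513136 to 18632382 fragments, so that 1 fragment on 1 kb of exon was worth 0.0537 to 0.0689 FPKM. Tissue content differed between libraries. Tg, which encodes thyroglobulin, stood at 90.6, 166 and 303 FPKM in OVA/LPS/Vehicle 12, 34 and 56 and at no more than 1.44 FPKM in the other 8 libraries. Acan, a cartilage gene, was at 0 in PBS 3, OVA/LPS/GGsTop 1 and OVA/LPS/GGsTop 3, and between 2.13 and 23.04 FPKM elsewhere. Sftpc, a gene of alveolar type II cells, was at least 3541 FPKM in every library, against the tracheal label. The dependence of log2 FPKM on GC content ran from -0.261 to -0.190 per 10 percentage points in OVA/LPS/Vehicle, from 0.046 to 0.108 in OVA/LPS/GGsTop, and was 0.061, 0.048 and 0.533 in PBS 1, 2 and 3. Leaving out the libraries with thyroid RNA or those without cartilage RNA was among the alternatives run. Without the libraries with thyroid RNA, OVA/LPS/Vehicle 78 is the lone library of its group. Signs turned and calls lost in that alternative therefore compare this lone library with another group.

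The ribonuclease members are close copies of each other, which bears on how fragments can be assigned to them. Shown here are the first 300 coding bases of each, 5′ to 3′, from GENCODE M21 on GRCm38, with capitals at the bases that differ from Ear2. The stretches lie on chromosome 14 within a single coding exon each, at chr14:44102887-44103186 (+) for Ear2, chr14:43819110-43819409 (-) for Ear1 and chr14:51853998-51854297 (+) for Ear6.
Ear2: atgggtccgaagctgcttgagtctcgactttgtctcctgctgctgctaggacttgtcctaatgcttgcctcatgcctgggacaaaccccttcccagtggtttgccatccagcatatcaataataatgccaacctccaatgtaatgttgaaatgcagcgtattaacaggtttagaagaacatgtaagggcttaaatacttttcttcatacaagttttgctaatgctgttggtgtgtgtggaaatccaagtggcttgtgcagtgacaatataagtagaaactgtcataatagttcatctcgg
Ear1: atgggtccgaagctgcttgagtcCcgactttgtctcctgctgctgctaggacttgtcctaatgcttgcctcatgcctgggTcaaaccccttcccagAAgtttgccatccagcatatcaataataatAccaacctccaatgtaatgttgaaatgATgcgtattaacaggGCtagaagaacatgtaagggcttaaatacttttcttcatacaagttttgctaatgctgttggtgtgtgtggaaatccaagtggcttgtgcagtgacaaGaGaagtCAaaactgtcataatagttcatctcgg
Ear6: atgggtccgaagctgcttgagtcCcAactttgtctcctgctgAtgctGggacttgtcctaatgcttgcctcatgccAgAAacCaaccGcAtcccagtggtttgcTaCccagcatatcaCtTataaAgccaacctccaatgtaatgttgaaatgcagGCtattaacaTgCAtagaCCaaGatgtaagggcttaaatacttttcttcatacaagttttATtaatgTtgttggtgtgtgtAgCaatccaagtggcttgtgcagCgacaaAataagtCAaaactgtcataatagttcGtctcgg
Ear1 differed from Ear2 at 13 of these 300 bases and Ear6 at 33. Over the whole coding sequence (471 bases in Ear2, 468 in Ear1 and Ear6), identity was 95.1% between Ear1 and Ear2, 87.7% between Ear2 and Ear6 and 87.4% between Ear1 and Ear6. Ear2 was closer still to Ear10, at 97.0%, with 185 identical bases in a row. Of all stretches of 100 bases in the transcripts, 23.9% of those in Ear1 and 13.9% of those in Ear2 also occurred in another chromosome 14 transcript, whereas 0 of 907 did so in Ear6. The shared stretches of Ear1 were found in the pseudogene Ear-ps9 and in Ear10, and those of Ear2 in Ear10 and the pseudogene Ear-ps2, while no stretch of 100 bases was shared between Ear1 and Ear2, whose coding sequences had at most 96 identical bases in a row. The levels of Ear1 and Ear2 are therefore uncertain to the extent that fragments of Ear-ps9, Ear-ps2 or Ear10 were counted with them.

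The members spanned more than 3 orders of magnitude in level. The mean over the 11 libraries was 112.5 FPKM for Ear2, 16.02 for Ear1, 11.8 for Alox15, 5.83 for Siglecf, 1.16 for Prg2, 1.04 for Il5ra, 0.503 for Ear6 and 0.0724 for Epx. Ear2 ranked 270 of all genes, and its lowest library (53.0 FPKM) lay above the highest library of any other member (32.7 FPKM, Alox15). Ear1 and Alox15 were neighbours whose ranges overlapped, from 5.28 to 28.7 FPKM and from 2.41 to 32.7 FPKM. The ranges of Prg2 (0.0792 to 2.30 FPKM) and Il5ra (0.390 to 1.91 FPKM) overlapped as well, and so did those of Ear6 and Epx. Major basic protein, peroxidase and IL-5 receptor genes thus lay at the low end of the set, and the genes shared with macrophages or epithelium at the high end. The level of a gene in whole tissue cannot tell fewer cells from less RNA per cell.

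**Figure D1:**
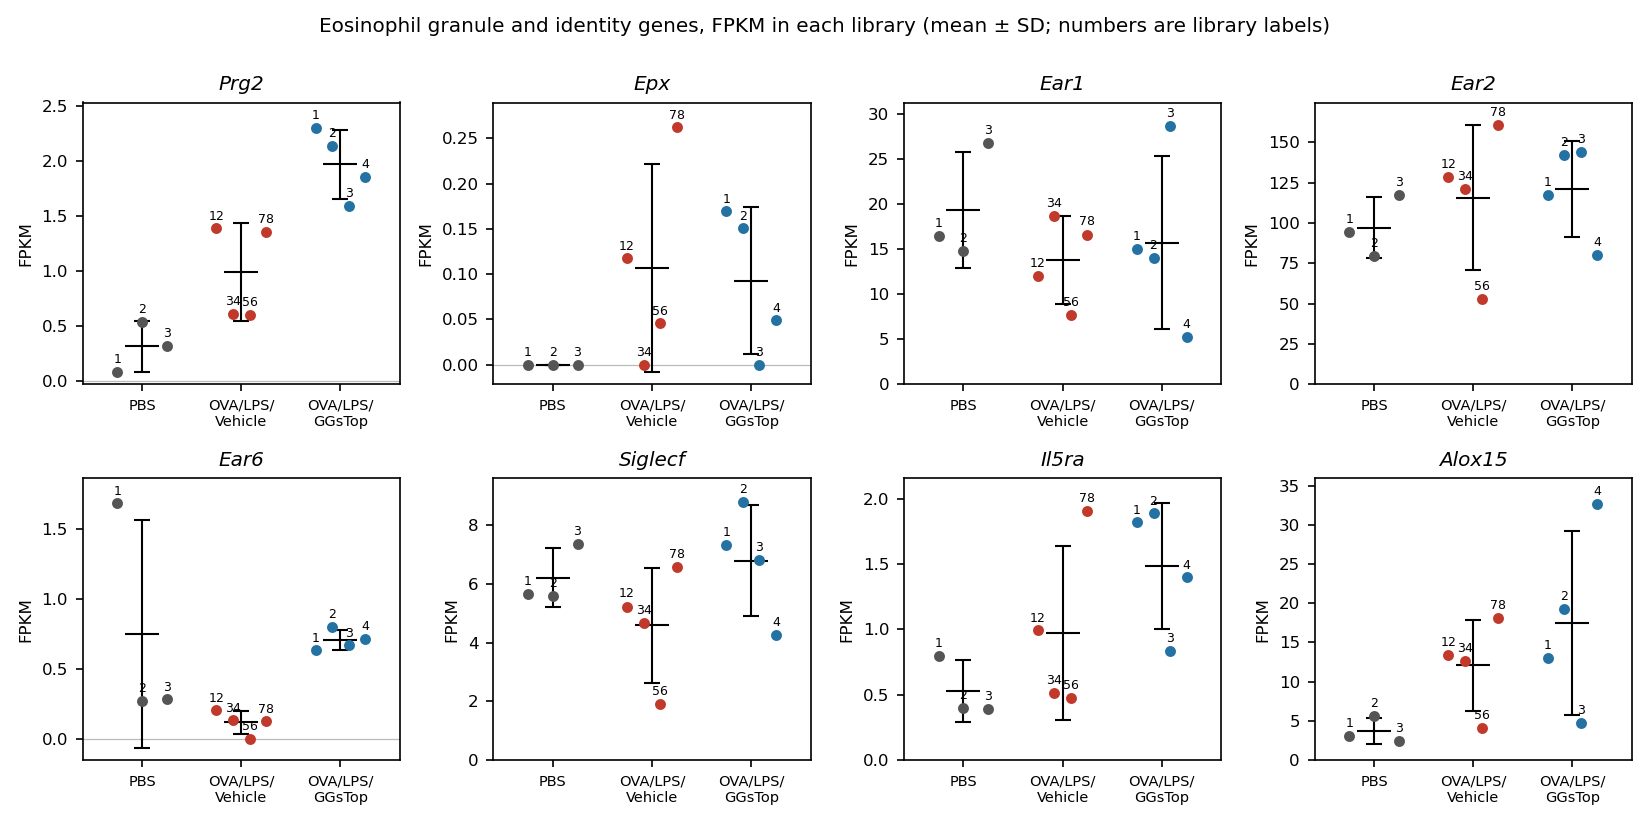
FPKM of the 8 members (linear axes) in each of the 11 libraries, which carry their labels, with black bars for the mean ± SD of each group (n = 3 for PBS, n = 4 for each OVA/LPS group). Prg2 lies higher in each OVA/LPS/GGsTop library (1.59 to 2.30 FPKM) than in any PBS library (0.0792 to 0.539 FPKM), while Ear1, Ear2 and Siglecf overlap between all 3 groups.

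The 3 questions that follow from the design are what the asthma protocol did to these genes, what GGsTop added to it, and how the treated mice stood against the saline mice. The 3 comparisons share libraries and are not independent. Of the 8 members, 7 averaged 0.5 FPKM or more and entered the fit of 14004 genes (limma on log2(FPKM + 1), Benjamini-Hochberg adjustment, called at an adjusted p under 0.05), while Epx lay below and was examined by an exact permutation test. Ear6 reached the minimum only through PBS 1, so counts and medians over the 7 members are descriptions that depend on that library. Prg2 averaged 0.313 FPKM in PBS, under the minimum, and entered through the OVA/LPS groups in which it was high (0.986 and 1.97 FPKM). Its calls against PBS stayed in the fit with no minimum level.

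Against PBS, OVA/LPS/Vehicle raised 1 of the 7 members, Prg2, and lowered none. Across all genes of that comparison 38% were called, 15.9% higher and 22.1% lower. The 1 of 7 called higher is near the share in that direction, and no result about the members is drawn from it. The groups did not overlap for Prg2, which was higher, and for Ear6, which was lower, against 44.1% of all genes in either direction and 18.7% in the higher direction. The median log2 fold change was 0.16 over the 7 members and -0.01 over all genes, with 4 members positive and 3 negative.

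Against OVA/LPS/Vehicle, OVA/LPS/GGsTop changed 0 of the 7 members by limma at an adjusted p under 0.05, against 8.71% of all genes (6.9% higher and 1.81% lower). At an unadjusted p under 0.05 there were 2 members, Prg2 and Ear6, and a limma-voom fit of recovered fragments also called 0. For these same 2 members the groups did not overlap, both in the higher direction, against 29.7% of all genes and 17.3% in that direction. All 7 log2 fold changes were positive, with a median of 0.38 against 0.03 over all genes. Without the 3 libraries with thyroid RNA 4 of them were negative (Il5ra -0.25, Ear1 -0.28, Ear2 -0.44 and Alox15 -0.32). That fit leaves vehicle 78 as the lone vehicle library, which was the highest of its group for Il5ra, Ear2 and Alox15. Without vehicle 56 alone 3 log2 fold changes were negative (Ear1 -0.18, Ear2 -0.20 and Alox15 -0.020). The surplus of genes called higher across the table (966 against 254) depended on scaling, since it was 344 against 354 after libraries were set to the same median and 34 against 22 after a GC correction.

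Against PBS, OVA/LPS/GGsTop raised 1 of 7 members, again Prg2, against 2.88% of all genes (2.06% higher and 0.821% lower). Prg2 and Il5ra did not overlap between the groups, against 14.8% of all genes and 7.22% in the higher direction. The median log2 fold change of the members was 0.29, against 0.01 over all genes, with 6 positive and 1 negative. With the replicate number as a block, 2 members were called, Prg2 and Alox15, while genes called overall fell from 403 to 95.

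**Figure D2:**
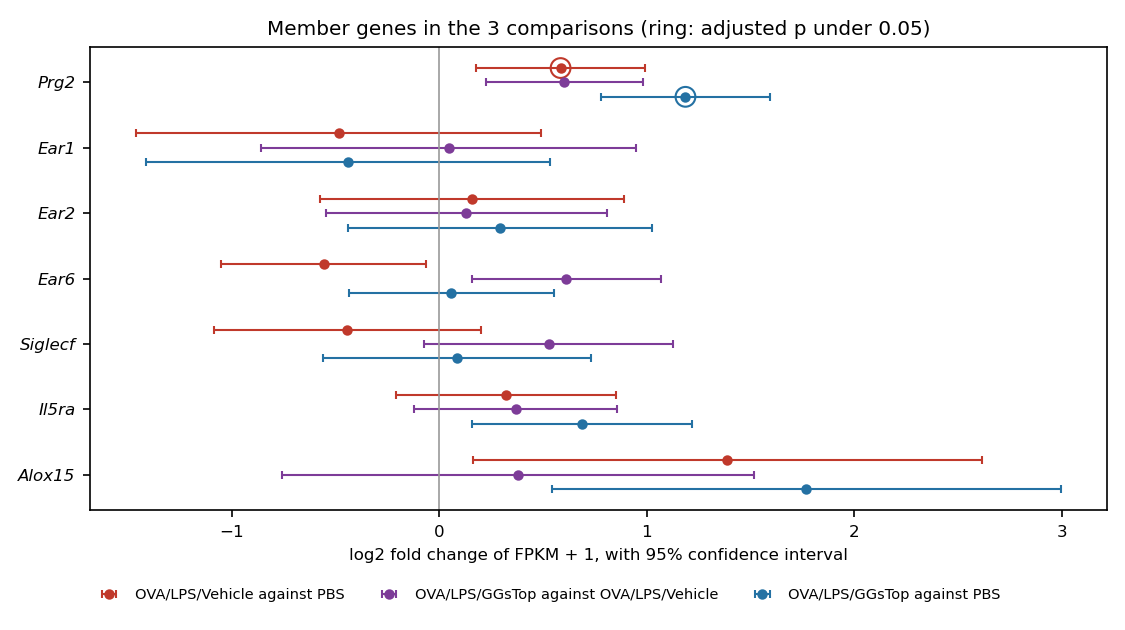
log2 fold change on the log2(FPKM + 1) scale (points, limma) with 95% confidence intervals (lines) for the 7 members in the fit, in each of the 3 comparisons, with a ring where the adjusted p was under 0.05. The interval of Prg2 lies above 0 in all 3 comparisons, and the widest intervals belong to Alox15.

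Prg2 (ENSMUSG00000027073, chr2:84980461-84983632 on GRCm38, plus strand) encodes major basic protein, the main constituent of the eosinophil granule core. Its level was 0.0792, 0.539 and 0.320 FPKM in PBS 1, 2 and 3. It was 1.39, 0.604, 0.599 and 1.36 FPKM in OVA/LPS/Vehicle 12, 34, 56 and 78, and 2.30, 2.14, 1.59 and 1.85 FPKM in OVA/LPS/GGsTop 1 to 4. The groups formed 3 steps with no overlap between them, the OVA/LPS/Vehicle libraries falling into a lower and a higher pair. These values rest on few fragments, 1 to 7 per PBS library, 8 to 19 per OVA/LPS/Vehicle library and 21 to 29 per OVA/LPS/GGsTop library. The means were 0.313 ± 0.230 (SD, n = 3), 0.986 ± 0.445 (SD, n = 4) and 1.97 ± 0.314 FPKM (SD, n = 4).

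Prg2 rose 3.15-fold by means in OVA/LPS/Vehicle against PBS, with a log2 fold change of 0.58 (SE 0.19, 95% interval 0.18 to 0.99, limma adjusted p = 0.0303). Between OVA/LPS/GGsTop and OVA/LPS/Vehicle the ratio of means was 1.997, and the log2 fold change of 0.60 (SE 0.17, 95% interval 0.22 to 0.98) missed the threshold at a limma adjusted p = 0.0517. Prg2 rose 6.30-fold by means in OVA/LPS/GGsTop against PBS, with a log2 fold change of 1.19 (SE 0.19, 95% interval 0.78 to 1.60, limma adjusted p = 0.0144). The pseudocount of 1 compresses these values, and on recovered fragments the 3 log2 fold changes were 1.70, 1.06 and 2.76. The call against PBS in OVA/LPS/Vehicle was lost in 7 of 17 alternatives, among them without PBS 1 (limma adjusted p = 0.107), PBS 3 (0.0766), OVA/LPS/Vehicle 12 (0.0695) or OVA/LPS/Vehicle 78 (0.0785), in a fit of the 2 groups alone (0.0588), without the 3 libraries with thyroid RNA (0.205) and without the 3 libraries lacking cartilage RNA (0.0965). The call in OVA/LPS/GGsTop against PBS was lost in 4 of 18, namely without PBS 1 (limma adjusted p = 0.0780), PBS 3 (0.0576), OVA/LPS/GGsTop 1 (0.0516) or the 3 libraries lacking cartilage RNA (0.0695), and the difference between the OVA/LPS groups was called in 3 of 18, without OVA/LPS/Vehicle 12 (0.0495), in a fit of those 2 groups alone (0.0297) and with array weights (0.0123). The direction was the same in every alternative run.

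Epx (ENSMUSG00000052234, chr11:87864000-87875536 on GRCm38, minus strand) encodes eosinophil peroxidase, the enzyme of the granule matrix. It was at 0 in all 3 PBS libraries. It was 0.118, 0, 0.0458 and 0.262 FPKM in OVA/LPS/Vehicle 12, 34, 56 and 78, and 0.170, 0.151, 0 and 0.0494 FPKM in OVA/LPS/GGsTop 1 to 4. In fragments these were 0 in PBS, 19 over the OVA/LPS/Vehicle libraries and 15 over the OVA/LPS/GGsTop libraries. Epx was therefore seen in 3 of 4 libraries of each OVA/LPS group and in no PBS library. A count of 0 allows up to 3 fragments, worth 0.0588 to 0.0728 FPKM in a PBS library. The mean of OVA/LPS/Vehicle was 1.58 times and that of OVA/LPS/GGsTop 1.37 times the mean PBS floor per library. Vehicle 34 and 56 and GGsTop 3 and 4 lay below the PBS floors, so no minimum rise is given. The exact two-sided permutation test gave p = 0.229 for each OVA/LPS group against PBS, where 4 against 3 libraries can reach no less than 0.0571. The same exact permutation test gave p = 0.971 between the OVA/LPS groups, where the smallest possible value is 0.0286. These floors cover only the counting error of the PBS libraries.

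Ear2 (ENSMUSG00000072596, chr14:44102654-44103534 on GRCm38, plus strand) encodes a secreted ribonuclease of the eosinophil-associated family. Its level was 94.5, 79.8 and 117 FPKM in PBS 1, 2 and 3. It was 129, 121, 53.0 and 161 FPKM in OVA/LPS/Vehicle 12, 34, 56 and 78, and 117, 142, 144 and 80.0 FPKM in OVA/LPS/GGsTop 1 to 4. All 3 groups overlapped, and the lowest libraries were OVA/LPS/Vehicle 56, PBS 2 and OVA/LPS/GGsTop 4. The log2 fold change was 0.16 (95% interval -0.57 to 0.89, limma adjusted p = 0.719) for OVA/LPS/Vehicle against PBS, 0.13 (-0.55 to 0.81, limma adjusted p = 0.802) for GGsTop against vehicle and 0.29 (-0.44 to 1.02, limma adjusted p = 0.637) for OVA/LPS/GGsTop against PBS. Ear2 was covered by 608 to 1929 fragments per library.

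Ear1 (ENSMUSG00000072601, chr14:43818765-43875517 on GRCm38, minus strand) is the near copy of Ear2. Its level was 16.5, 14.8 and 26.8 FPKM in PBS 1, 2 and 3. It was 12.02, 18.7, 7.73 and 16.6 FPKM in OVA/LPS/Vehicle 12, 34, 56 and 78, and 15.0, 14.1, 28.7 and 5.28 FPKM in OVA/LPS/GGsTop 1 to 4. OVA/LPS/GGsTop held both the highest and the lowest of the 11 libraries. The log2 fold change was -0.48 (95% interval -1.46 to 0.49, limma adjusted p = 0.396) for OVA/LPS/Vehicle against PBS, 0.05 (-0.86 to 0.95, limma adjusted p = 0.954) for GGsTop against vehicle and -0.44 (-1.41 to 0.54, limma adjusted p = 0.595) for OVA/LPS/GGsTop against PBS. Between the OVA/LPS groups the sign turned in 5 of 18 alternatives for Ear1 and in 3 of 18 for Ear2. The ratio of Ear2 to Ear1 ran from 4.38 to 5.74 in PBS, from 6.45 to 10.7 in OVA/LPS/Vehicle and from 5.02 to 15.2 in OVA/LPS/GGsTop.

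Ear6 (ENSMUSG00000062148, chr14:51853699-51854643 on GRCm38, plus strand) is the more distant ribonuclease of the same family. Its level was 1.69, 0.273 and 0.284 FPKM in PBS 1, 2 and 3. It was 0.205, 0.134, 0 and 0.127 FPKM in OVA/LPS/Vehicle 12, 34, 56 and 78, and 0.632, 0.802, 0.671 and 0.715 FPKM in OVA/LPS/GGsTop 1 to 4. OVA/LPS/Vehicle lay below both other groups with no overlap, and the GGsTop libraries were close to each other, while PBS 1 stood far above PBS 2 and 3. Fragments numbered 24, 4 and 5 in PBS, 3, 2, 0 and 2 in OVA/LPS/Vehicle and 9, 11, 10 and 10 in OVA/LPS/GGsTop. The mean of GGsTop was 6.06 times that of vehicle, with a log2 fold change of 0.61 (SE 0.21, 95% interval 0.16 to 1.07, limma adjusted p = 0.0805), and OVA/LPS/Vehicle differed from PBS by -0.56 (SE 0.23, 95% interval -1.05 to -0.06, limma adjusted p = 0.0701). OVA/LPS/GGsTop against PBS gave 0.06 (95% interval -0.44 to 0.55, limma adjusted p = 0.901). Ear6 passed the minimum of 0.5 FPKM through PBS 1, and without PBS 1 its difference from PBS in OVA/LPS/Vehicle was -0.20 (limma adjusted p = 0.234), while it was -0.74 without PBS 2 (limma adjusted p = 0.0267). On recovered fragments the 2 differences of the vehicle group were -2.15 from PBS (limma-voom adjusted p = 0.0529) and 2.62 to GGsTop (limma-voom adjusted p = 0.0543). Since its high PBS library decided its entry into the fit, nothing is drawn from the tests of Ear6.

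Siglecf (ENSMUSG00000039013, chr7:43351341-43359531 on GRCm38, plus strand) encodes an inhibitory sialic acid-binding lectin of eosinophils and alveolar macrophages. Its level was 5.66, 5.60 and 7.37 FPKM in PBS 1, 2 and 3. It was 5.23, 4.65, 1.91 and 6.56 FPKM in OVA/LPS/Vehicle 12, 34, 56 and 78, and 7.31, 8.79, 6.79 and 4.26 FPKM in OVA/LPS/GGsTop 1 to 4. Of the 4 GGsTop libraries 3 were above all vehicle libraries, and the fourth was below 3 of them. The log2 fold change was -0.44 (95% interval -1.09 to 0.20, limma adjusted p = 0.247) for OVA/LPS/Vehicle against PBS, 0.53 (-0.07 to 1.12, limma adjusted p = 0.209) for GGsTop against vehicle and 0.09 (-0.56 to 0.73, limma adjusted p = 0.887) for OVA/LPS/GGsTop against PBS. Over the alternatives the difference between the OVA/LPS groups ran from 0.0070 to 0.70, with limma adjusted p from 0.112 to 0.996.

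Il5ra (ENSMUSG00000005364, chr6:106710357-106749037 on GRCm38, minus strand) encodes the ligand-binding chain of the IL-5 receptor, through which eosinophils mature and survive. Its level was 0.799, 0.397 and 0.390 FPKM in PBS 1, 2 and 3. It was 0.992, 0.513, 0.474 and 1.91 FPKM in OVA/LPS/Vehicle 12, 34, 56 and 78, and 1.82, 1.89, 0.833 and 1.40 FPKM in OVA/LPS/GGsTop 1 to 4. Every GGsTop library was above every PBS library, while vehicle 34 and 56 were within the PBS range. The ratio of means was 2.81 between OVA/LPS/GGsTop and PBS, with a log2 fold change of 0.69 (SE 0.24, 95% interval 0.16 to 1.22, limma adjusted p = 0.147). It was 0.32 (95% interval -0.21 to 0.85, limma adjusted p = 0.303) for OVA/LPS/Vehicle against PBS and 0.37 (-0.12 to 0.86, limma adjusted p = 0.280) for GGsTop against vehicle. None of these was called in any alternative run, and the direction turned to -0.069 after the GC correction for OVA/LPS/Vehicle against PBS and to -0.25 without the 3 libraries with thyroid RNA for GGsTop against vehicle.

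Alox15 (ENSMUSG00000018924, chr11:70344152-70352031 on GRCm38, minus strand) encodes a lipoxygenase that oxygenates polyunsaturated fatty acids. Its level was 3.06, 5.63 and 2.41 FPKM in PBS 1, 2 and 3. It was 13.5, 12.7, 4.14 and 18.1 FPKM in OVA/LPS/Vehicle 12, 34, 56 and 78, and 13.1, 19.3, 4.78 and 32.7 FPKM in OVA/LPS/GGsTop 1 to 4. In each OVA/LPS group 3 libraries were above every PBS library and 1, vehicle 56 or GGsTop 3, was below PBS 2. The ratio of means to PBS was 3.27 for OVA/LPS/Vehicle and 4.72 for OVA/LPS/GGsTop. The log2 fold changes were 1.39 (SE 0.56, 95% interval 0.16 to 2.62, limma adjusted p = 0.0690) and 1.77 (SE 0.56, 95% interval 0.54 to 2.99, limma adjusted p = 0.110), so neither was called. Between the OVA/LPS groups the log2 fold change was 0.38 (95% interval -0.76 to 1.51, limma adjusted p = 0.647).

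The missing calls of Alox15 turned on few libraries. OVA/LPS/Vehicle against PBS was called without vehicle 56 (limma adjusted p = 0.0330), without PBS 2 (0.0497), in a fit of the 2 groups alone (0.0379) and with array weights (0.00721). OVA/LPS/GGsTop against PBS was called without GGsTop 3 (limma adjusted p = 0.0227), with array weights (0.0290), with the replicate number as a block (log2 fold change 1.39, adjusted p = 0.0498) and with the block and a GC correction together (0.0295). In vehicle 56 every member but Epx was at the lowest level of its group.

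The other eosinophil genes were taken from lists of granule and ribonuclease genes, receptors, lineage transcription factors, recruiting ligands and lipoxygenases. Of the granule and ribonuclease list only Rnase2a reached the minimum level for the fit, through the OVA/LPS groups in which it was high. Rnase2a, a ribonuclease of the same family as the Ear genes, was at 0 in the 3 PBS libraries, at 17.7, 9.63, 3.55 and 14.7 FPKM in the OVA/LPS/Vehicle libraries and at 8.28, 10.98, 3.03 and 22.7 FPKM in the OVA/LPS/GGsTop libraries. A total of 503 fragments in OVA/LPS/Vehicle and 461 in OVA/LPS/GGsTop stood against 0 in PBS, so its mean was at least 42.6-fold and at least 42.1-fold higher than the PBS floor of 3 fragments per library. It was called higher in both groups against PBS (limma adjusted p = 0.00365 and 0.0151). Since those groups decided its entry into the fit, these calls are only descriptions. Rnase2a did not pass between the OVA/LPS groups, with a log2 fold change of -0.10. The first call of Rnase2a was lost in 1 of 17 alternatives, without the 3 libraries with thyroid RNA (0.205), and the second in 4 of 18, without PBS 1 (0.0794), PBS 3 (0.0692) or GGsTop 1 (0.0516) and in the limma-voom fit (0.0730). Prg3, a second major basic protein gene, was 0.680 FPKM in PBS 2, 0.136 in OVA/LPS/Vehicle 12, 0.0726 in OVA/LPS/GGsTop 2 and 0 elsewhere, with exact permutation p = 0.857, 1 and 0.857 in the 3 comparisons. Ear10 was 0.399 FPKM in OVA/LPS/GGsTop 4 and 0 in the other 10 libraries, and Ear14 and Rnase2b were listed at 0 throughout.

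Of 13 receptor and surface genes in the fit, 1 rose and 2 fell in OVA/LPS/Vehicle against PBS. Il1rl1, the IL-33 receptor, rose by a log2 fold change of 0.55 (limma adjusted p = 0.0351), while S1pr4, a sphingosine 1-phosphate receptor, fell by 1.06 (limma adjusted p = 0.0140) and Itgb7, an integrin chain, fell by 0.53 (limma adjusted p = 0.0229). None was called between the OVA/LPS groups (3 at an unadjusted p under 0.05, 0 by limma at an adjusted p under 0.05), and Il1rl1 alone rose in OVA/LPS/GGsTop against PBS, by 0.78 (limma adjusted p = 0.0453, 0.0712 with the replicate block). The 2 calls of Il1rl1 were lost in 8 of 17 and 11 of 18 alternatives, among them without PBS 1 (limma adjusted p = 0.104 and 0.152) or PBS 3 (0.101 and 0.139), and those of S1pr4 and Itgb7 without PBS 3 (0.0676 and 0.0874) and after the GC correction (0.0724 and 0.302). Ccr3, the eotaxin receptor, was 1.36, 0.690 and 0.476 FPKM in PBS, 3.27, 1.93, 0.211 and 4.59 FPKM in OVA/LPS/Vehicle and 3.86, 4.42, 1.39 and 3.63 FPKM in OVA/LPS/GGsTop. The GGsTop libraries were all above PBS and vehicle 56 was below it, with log2 fold changes of 0.75 for vehicle against PBS (limma adjusted p = 0.204), 0.45 for GGsTop against vehicle (limma adjusted p = 0.490) and 1.20 for GGsTop against PBS (limma adjusted p = 0.170). Without vehicle 56 the first of these was 1.19 and was called (limma adjusted p = 0.0287). The median over the list was -0.41 for OVA/LPS/Vehicle against PBS, 0.24 for GGsTop against vehicle and 0.08 for GGsTop against PBS, beside -0.01, 0.03 and 0.01 over all genes.

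Of 9 lineage transcription factors, Id2 was the only one called. It rose by 0.44 in OVA/LPS/Vehicle against PBS (limma adjusted p = 0.00981) and fell by 0.55 in GGsTop against vehicle (limma adjusted p = 0.0186), and both calls were lost after the GC correction (0.286 and 0.104) and without the 3 libraries with thyroid RNA (0.210 and 0.772), the second also without vehicle 34 (0.0570) or GGsTop 1 (0.0714). Of 8 ligands in the fit, 3 rose in OVA/LPS/Vehicle against PBS and none was called between the OVA/LPS groups. Ccl11, which encodes eotaxin-1, was 2.27, 5.25 and 0.893 FPKM in PBS, 17.2, 14.2, 8.46 and 21.2 FPKM in OVA/LPS/Vehicle and 14.8, 18.8, 8.67 and 19.7 FPKM in OVA/LPS/GGsTop. Every library of both OVA/LPS groups was above every PBS library, and Ccl11 rose by 2.20 (limma adjusted p = 0.00451) and 2.23 (limma adjusted p = 0.01998) against PBS. The first call was lost in 1 of 17 alternatives, without the 3 libraries with thyroid RNA (0.205), and the second in 6 of 18, among them without PBS 1 (0.0921), PBS 3 (0.0893), GGsTop 1 (0.0654) or GGsTop 2 (0.0561). Ccl8, another CC chemokine, rose by 3.05 (limma adjusted p = 0.00598) and 2.87 (limma adjusted p = 0.0348), and Il4, a type 2 cytokine gene, rose by 0.76 in OVA/LPS/Vehicle (limma adjusted p = 0.0321), with the first call of Ccl8 lost in 1 of 17 alternatives, without the 3 libraries with thyroid RNA (0.205), the second in 9 of 18 and that of Il4 in 8 of 17. Ccl24, which encodes eotaxin-2, was between 0.820 and 2.82 FPKM in all libraries and was not called, with log2 fold changes of 0.15, 0.11 and 0.26. Il5 was 0 in every PBS library and no higher than 0.117 FPKM elsewhere, with exact permutation p = 0.571, 0.914 and 0.229. Of 6 lipoxygenase and leukotriene genes beside Alox15, limma called 0 in each of the 3 comparisons.

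**Figure D3:**
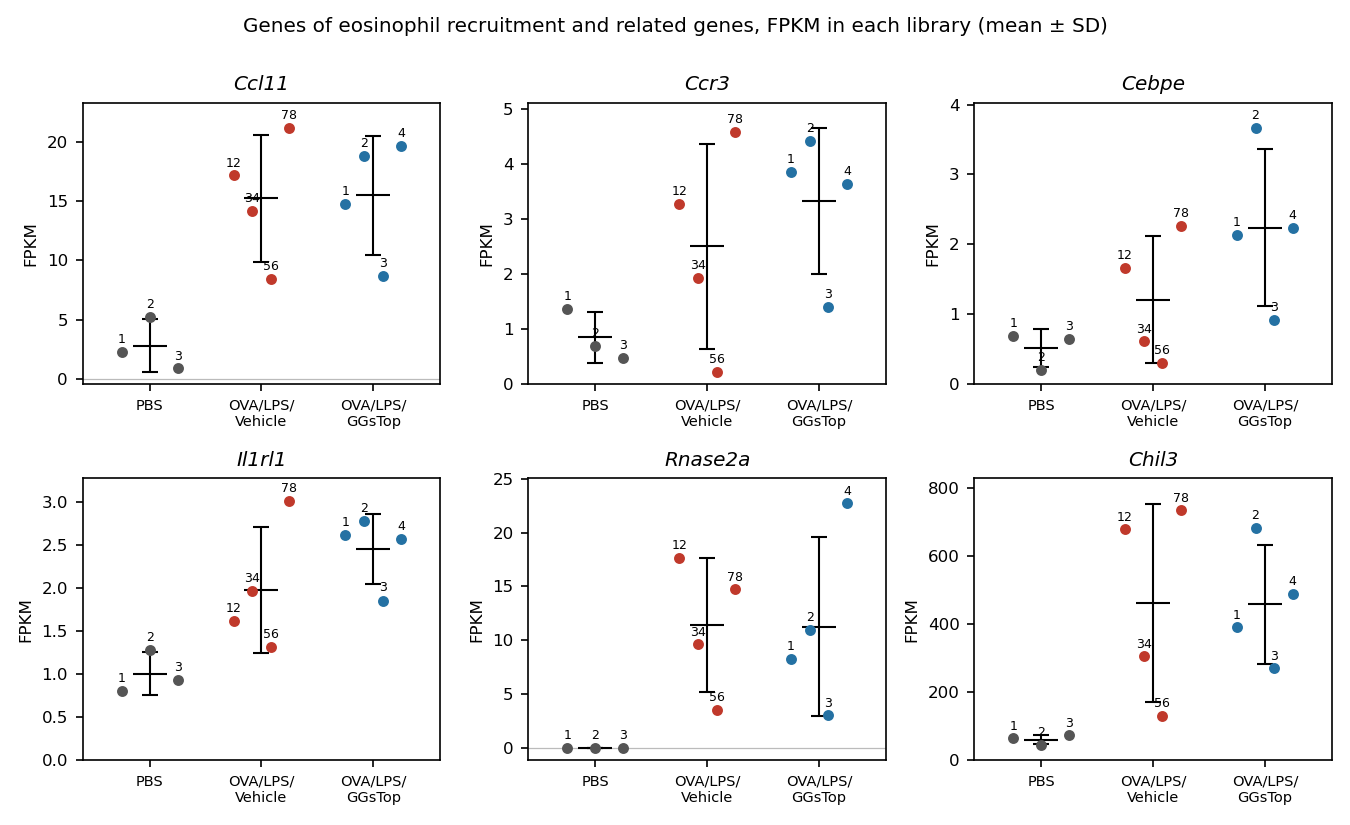
FPKM (linear axes) of Ccl11, Ccr3, Cebpe, Il1rl1, Rnase2a and Chil3 in each of the 11 libraries, with black bars for the mean ± SD of each group (n = 3 for PBS, n = 4 for each OVA/LPS group). Rnase2a is at 0 in the 3 PBS libraries and between 3.03 and 22.7 FPKM in the other 8, and Ccl11 is higher in all 8 than in any PBS library.

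Marker lists of the other cells in the tissue were read for the same libraries. The summed level of 12 alveolar macrophage markers was 245 to 321 FPKM in PBS, 329 to 958 in OVA/LPS/Vehicle and 517 to 903 in OVA/LPS/GGsTop. The list was led by Chil3, which encodes a chitinase-like lectin, and Car4. The higher sums in both OVA/LPS groups rested on Chil3, which ran from 44.7 to 72.7, from 131 to 735 and from 270 to 683 FPKM. The log2 fold changes of the 12 markers against PBS were mixed. They were positive for 7 and negative for 5 in OVA/LPS/Vehicle, and positive for 6 and negative for 6 in OVA/LPS/GGsTop. In OVA/LPS/Vehicle 3 of these 12 rose (Chil3, Plet1 and Pparg) and 1 fell (Fabp1), 0 were called between the OVA/LPS groups, and Chil3 alone rose in OVA/LPS/GGsTop against PBS. The 12 neutrophil markers summed to 198 to 361, 486 to 664 and 221 to 608 FPKM in the 3 groups, led by Ltf and S100a9. The higher sums in OVA/LPS/Vehicle rested on Ltf, which ran from 2.92 to 178, from 222 to 522 and from 15.1 to 452 FPKM. S100a9 ran from 57.6 to 222, from 90.4 to 156 and from 67.4 to 146 FPKM. The 6 pan-leukocyte genes summed to 212 to 280, 203 to 293 and 161 to 256 FPKM, led by Tyrobp and Laptm5. Of the neutrophil genes in the fit, 3 rose (Camp, Ngp and Ltf) and 2 fell, among them Mmp9, in OVA/LPS/Vehicle against PBS. Camp averaged 0.348 FPKM in PBS, under the minimum, and entered the fit through the OVA/LPS groups, so its call is only a description. Summed alveolar epithelial markers, led by Sftpc and Sftpb, ran from 10250 to 16313 FPKM in PBS, from 5280 to 8708 in OVA/LPS/Vehicle and from 4643 to 11990 in OVA/LPS/GGsTop. The share of these cell types in the differences of the members was not tested.

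Of the remaining lists, B and plasma cell genes were led by Jchain, the joining chain of secreted antibodies, and Cd79a. Jchain rose by 4.26 in OVA/LPS/Vehicle (limma adjusted p = 0.00337) and 4.41 in OVA/LPS/GGsTop (limma adjusted p = 0.00683) against PBS, and Mzb1 by 0.69 in GGsTop against vehicle (limma adjusted p = 0.0458). Of 6 mast cell and basophil genes, led by Kit and Cpa3, Ms4a2 rose and Kit fell in OVA/LPS/Vehicle against PBS. Cpa3 fell in GGsTop against vehicle. Ms4a2 averaged 0.277 FPKM in PBS, under the minimum, and entered the fit through the OVA/LPS groups, so its call is only a description. Of 8 airway epithelial genes, led by Scgb1a1 and Bpifa1, 3 rose in OVA/LPS/Vehicle against PBS (Foxj1, Muc5b and Epcam) and Foxj1 and Muc5b rose in OVA/LPS/GGsTop against PBS, Muc5b with a limma adjusted p = 0.0452 that was 0.0540 with the replicate block. Cd53 of the pan-leukocyte list rose by 0.57 in vehicle against PBS and fell by 0.74 in GGsTop against vehicle. Neither the 6 cartilage and smooth muscle genes, led by Acta2 and Myh11, nor the bone marrow progenitor gene in the fit, Cd34, were called in any comparison (Prtn3, the next of that list, was below the minimum). Tg and Pth rose in OVA/LPS/Vehicle against PBS and Tg fell in GGsTop against vehicle. The high levels of Tg were confined to vehicle 12, 34 and 56. Pth averaged 0.0504 FPKM in PBS and entered the fit through OVA/LPS/Vehicle (80.3 FPKM), so its call is only a description too. Of these marker calls, those of Chil3, Jchain and Foxj1 in OVA/LPS/Vehicle against PBS were lost in 1 of 17 alternatives each, those of Ltf in 9, Pparg in 8 and Muc5b in 4 of 17, and in GGsTop against vehicle those of Mzb1 in 12, Cd53 in 9 and Cpa3 in 8 of 18.

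Members were then compared with each other and with marker genes across the 11 libraries, in 154 pairs, by Pearson's r and Spearman's rho of log2(FPKM + 1) with two-sided permutation p-values adjusted over the pairs, of which 42 had an adjusted Pearson p under 0.05. The values within groups are correlations of deviations from the group means. Those without 2 libraries leave out the 2 farthest from the median of the second gene named in the pair. Il5ra went with Cebpe, an eosinophil lineage factor, at r = 0.94 (permutation p = 2e-05, adjusted p = 0.00154), rho = 0.93 (permutation p = 0.00012, adjusted p = 0.00616), 0.89 within groups and 0.92 without the 2 libraries farthest from the Cebpe median. Il5ra went with Ccr3 at r = 0.91 (permutation p = 0.00033, adjusted p = 0.00726), rho = 0.95 (permutation p = 4e-05, adjusted p = 0.00308), 0.86 within groups and 0.91 without 2 libraries. Prg2 and Il5ra gave r = 0.79 (permutation p = 0.00572, adjusted p = 0.0319), rho = 0.75 (permutation p = 0.0101, adjusted p = 0.0535), 0.59 within groups and 0.79 without 2 libraries. Prg2 and Siglecf gave r = 0.31 (permutation p = 0.374, adjusted p = 0.594) and rho = 0.23 (permutation p = 0.503, adjusted p = 0.712), with 0.55 within groups. For this pair r was 0.043 without the 2 libraries farthest from the Siglecf median and 0.63 without the 2 farthest from the Prg2 median. Il5ra thus varied with Ccr3 and Cebpe within and across groups, while the value for Prg2 and Siglecf depended on the libraries included. Genes of other cells went with Prg2 and Il5ra too. Prg2 and Jchain gave r = 0.84 (permutation p = 0.00045, adjusted p = 0.00866), with 0.78 within groups. Il5ra and Jchain gave r = 0.71 (permutation adjusted p = 0.0521) and rho = 0.92 (permutation adjusted p = 0.00616). For Il5ra r was 0.86 with Retnlg, of the neutrophil list, and 0.78 with the macrophage gene Chil3 (permutation adjusted p = 0.0148 and 0.0335). With Tyrobp r was 0.02 for Prg2 and 0.11 for Il5ra.

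Siglecf, Ear1 and Ear2 were set against the macrophage genes Itgax and Chil3 and the alveolar surfactant gene Sftpc. Siglecf went with Itgax, the integrin chain of alveolar macrophages and dendritic cells, at r = 0.97 within groups, while over the 11 libraries r was 0.72 (permutation p = 0.00832, adjusted p = 0.0357) and rho 0.55 (permutation p = 0.0819, adjusted p = 0.207). Without 2 libraries r was 0.33. Leaving out the libraries farthest from the Itgax median also narrows its range, so nothing is drawn from this lower value. Ear2 went with Itgax at r = 0.88 (permutation p = 0.00027, adjusted p = 0.00693), rho = 0.86 (permutation p = 0.0011, adjusted p = 0.0182), 0.93 within groups and 0.79 without 2 libraries. Siglecf and Ear2 gave r = 0.97 within groups, 0.81 overall (permutation p = 0.00423, adjusted p = 0.0262), rho = 0.53 (permutation p = 0.0997, adjusted p = 0.240) and r = 0.59 without 2 libraries. The ratio of Siglecf to Itgax ran from 0.510 to 0.553 in PBS, from 0.243 to 0.308 in OVA/LPS/Vehicle and from 0.291 to 0.362 in OVA/LPS/GGsTop, so that PBS lay apart from both other groups. The ratio of Ear2 to Siglecf ran from 14.3 to 16.7 in PBS, from 24.5 to 27.8 in OVA/LPS/Vehicle and from 16.1 to 21.2 in OVA/LPS/GGsTop, with the vehicle libraries above all others. Ear1 went with Sftpc at r = 0.86 (permutation p = 0.00066, adjusted p = 0.0113), rho = 0.77 (permutation p = 0.0072, adjusted p = 0.0462), 0.90 within groups and 0.71 without 2 libraries. With Sftpc r was 0.52 for Siglecf (permutation p = 0.104, adjusted p = 0.239) and 0.32 for Ear2 (permutation p = 0.328, adjusted p = 0.543), with rho of 0.65 and 0.19 (permutation adjusted p = 0.105 and 0.766). Ear1 and Itgax gave r = 0.26 (permutation p = 0.445, adjusted p = 0.646) and rho = 0.14 (permutation p = 0.691, adjusted p = 0.823), with 0.55 within groups and 0.054 without 2 libraries. With Chil3, another macrophage marker, r was 0.19 for Siglecf, 0.54 for Ear2 and -0.24 for Ear1 (permutation adjusted p = 0.747, 0.209 and 0.656).

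**Figure D4:**
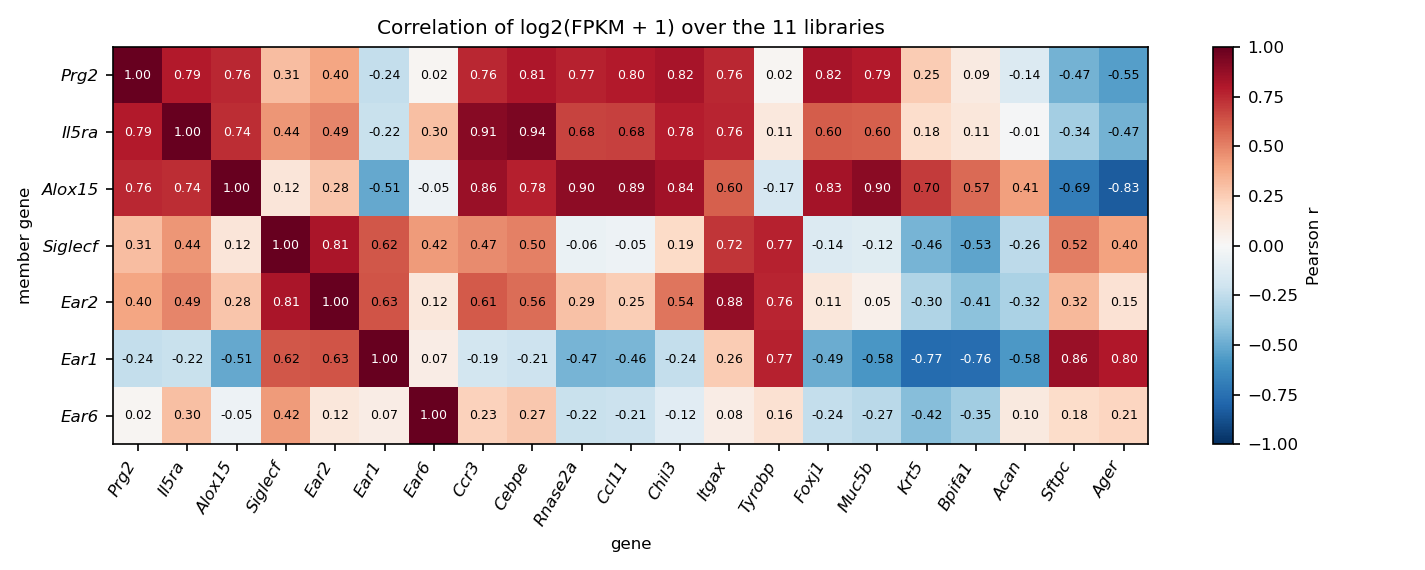
Pearson's r of log2(FPKM + 1) over the 11 libraries between each of 7 members (rows) and the members and selected marker genes (columns), coloured from -1 to 1. Il5ra is closest to Cebpe (0.94) and Ccr3 (0.91), Ear2 to Itgax (0.88) and Ear1 to Sftpc (0.86). Prg2 has r = 0.82 with both Chil3 and Foxj1 and r = 0.02 with Tyrobp. Within groups (not drawn) its values were 0.64 with Chil3, 0.25 with Foxj1 and 0.13 with Tyrobp.

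Alox15 varied with some genes of the conducting airway, and with genes of recruitment, eosinophils and macrophages. Its r was 0.90 with Muc5b, an airway mucin gene (permutation p = 2e-05, adjusted p = 0.00154), with rho = 0.92 (permutation p = 0.0002, adjusted p = 0.00616), 0.81 within groups and 0.92 without 2 libraries. With Ccl11 r was 0.89 (permutation p = 3e-05, adjusted p = 0.00154), rho 0.95 (permutation p = 4e-05, adjusted p = 0.00308), 0.86 within groups and 0.88 without 2 libraries. With Rnase2a r was 0.90 (permutation p = 0.00022, adjusted p = 0.00678), rho 0.89 (permutation p = 0.00062, adjusted p = 0.0133), 0.93 within groups and 0.93 without 2 libraries. It was 0.83 with Foxj1, 0.86 with Ccr3, 0.84 with Chil3 and 0.78 with Cebpe (permutation adjusted p = 0.0137, 0.0157, 0.0183 and 0.0342). The airway genes Bpifa1 and Krt5 did not pass, at 0.57 and 0.70 (permutation adjusted p = 0.184 and 0.0673). GGsTop 4 had the highest Alox15 and Muc5b (32.7 and 80.8 FPKM) and the lowest Ear1 and Sftpc (5.28 and 3541 FPKM), and GGsTop 3 had low Alox15 and Muc5b for its group (4.78 and 9.46 FPKM) with its highest Ear1 and Sftpc (28.7 and 9516 FPKM). The part that the dissected stretch of airway had in these levels was not tested.

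**Figure D5:**
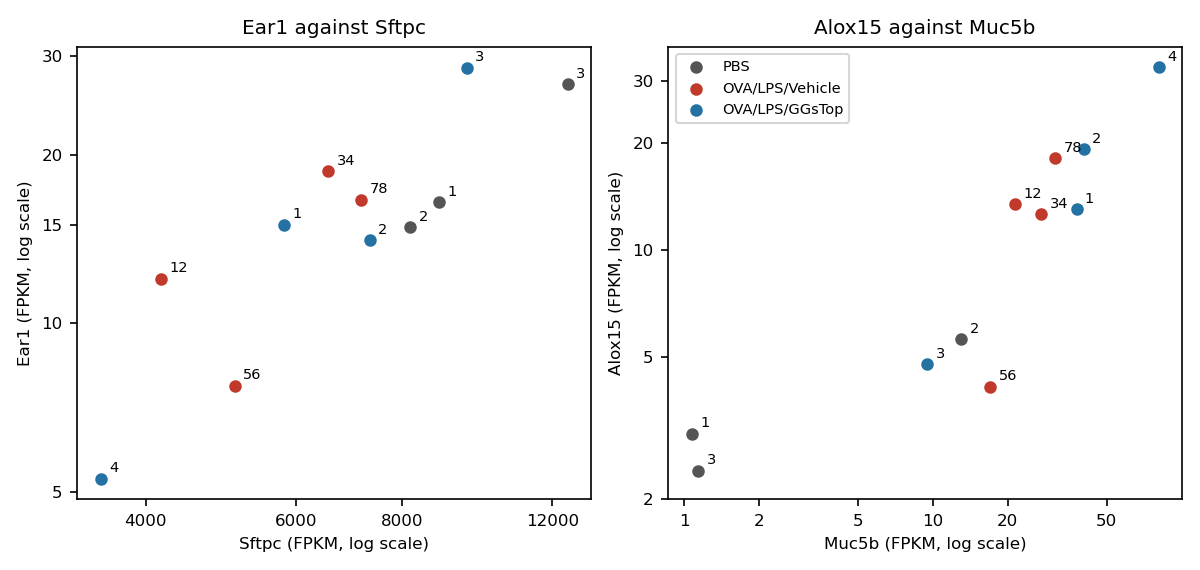
Left, Ear1 against Sftpc, and right, Alox15 against Muc5b, in FPKM on log axes, 1 point per library coloured by group. Ear1 rises with Sftpc (r = 0.86) and Alox15 with Muc5b (r = 0.90) across the 11 libraries, with GGsTop 3 and GGsTop 4 at opposite ends of their group.

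For each member in the fit, the 5 genes with the most similar profile were read from the 14004 genes, by Pearson's r over 11 libraries, as a description. For Il5ra they were Cebpe (0.94), Ccr3 (0.91), Abcb1b, Mgl2 and Stac2 (0.90 each). For Siglecf they were Nfam1, Csf2rb, Pirb and Tnfrsf1b (0.94 each) and Adam19 (0.93), where Csf2rb encodes the signalling chain shared by the IL-5 and GM-CSF receptors. For Ear2 they were Mpeg1 (0.93), Clec4a1 (0.91), Clec4n (0.90), Gpnmb (0.89) and F2rl2 (0.88), and for Ear1 Arl11 (0.94), Atp8a1 (0.92), Mpp1 (0.91), Fxyd5 (0.90) and Ccdc115 (0.89). Mpeg1, Clec4a1 and Clec4n are genes of myeloid cells. For Alox15 they were Hacd4 (0.98), F5 (0.97), Capn9 (0.97), Gas2l2 (0.96) and an identifier with no symbol (0.96). For Prg2 they were Ttll6 (0.96), Sord (0.94), Derl3 (0.94), Cd207 (0.93) and Gm20661 (0.93), and for Ear6 Aasdh (0.95), Plpbp (0.95), Sft2d1 (0.90), Trim39 (0.88) and Kdm2a (0.87). The low counts of Prg2 and Ear6 make their lists less certain than those of the abundant members.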

How the data were processed

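RNA from dissected airways was sequenced as poly-A libraries. The authors deposited 1 table of FPKM per gene and library, and the submitters' processing notes name cutadapt 1.15, HISAT2 2.0.5, HTSeq 0.9.1 and the mm39 build. The merged exon lengths of GENCODE M21, which is on GRCm38, turned the FPKM of 97.8% of genes into whole fragments in every library (within 0.05 fragment), so coordinates are given on GRCm38 and the build that was counted is uncertain. Of 21899 genes, 21846 matched this annotation. How multi-mapped reads were counted is not given in the sources used here.

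The FPKM were set to log2(FPKM + 1) and fitted by limma 3.58.1 (R 4.3.3) with a mean-variance trend over all 11 libraries, restricted to genes averaging 0.5 FPKM or more, two-sided, with Benjamini-Hochberg adjustment over 14004 genes. A fold change on this scale understates the change of low genes. For genes below the minimum, group labels were permuted exactly and the two-sided p of the mean log2(FPKM + 1) difference was taken. A count test was not the main test because the deposited values are FPKM, and limma-voom on recovered fragments was an alternative. Correlations used 100000 permutations of the library labels (scipy 1.17.1). Scripts were tested on simulated data.

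The members and gene lists were chosen with earlier results of these data known. From the lists were named the called genes (at most 4 a list and comparison, by smallest p), the 2 genes of highest mean level of each marker list, and Il5, Ccl11, Ccl24, Ccr3 and Prg3. Ccl11 and Ccr3 stand with Il1rl1, Cebpe, Rnase2a and Chil3 in the plot of pathway genes. Cebpe, Itgax, Muc5b, Sftpc and Retnlg were chosen for the correlations.

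The labels do not say whether libraries are separate mice, so p-values measure only the spread between these libraries, which may be technical. PBS and OVA/LPS/GGsTop share replicate numbers 1 to 3. Deviations from the group means of same-numbered libraries correlated across genes at 0.367, 0.427 and 0.428, so these numbers were treated as pairs and a fit with the replicate block was run. Libraries of unlike number correlated too, PBS 1 with OVA/LPS/GGsTop 3 at 0.457, PBS 3 with OVA/LPS/GGsTop 1 at 0.223 and PBS 2 with OVA/LPS/GGsTop 4, which has no partner, at 0.637, so the number need not be what links them. The alternatives were other pseudocounts, minimum levels, a common median, a GC correction, array weights, fits of 2 groups, the block, and each library left out in turn. Leaving out the 3 libraries with thyroid RNA or the 3 without cartilage RNA was added after the data were seen.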

Additional observations from a re-analysis of the deposited data

Results flagged for a closer look

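In 26 group values of members and named genes tested for a single library far from the rest of its group, 2 stood out, and chance gives about 1 in 20. Both concern Prg3, a major basic protein gene. It was 0.136 FPKM in OVA/LPS/Vehicle 12 and 0.0726 FPKM in OVA/LPS/GGsTop 2, each the only library of its group above 0. These values rest on 2 and 1 fragments. PBS 2 was likewise the only PBS library above 0, at 0.680 FPKM and 10 fragments, and was not flagged. A lone value above 0 always stands out from a group at 0, so nothing is drawn from the chance rate here.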

How the results depend on the processing

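Depth limited Epx, Prg2 and Ear6, which rest on 0 to 29 fragments per library, and groups of 3 and 4 libraries left most members with intervals that include changes in either direction. Over the planned and added alternatives, member results kept their direction and side of the threshold in 321 cases, passed it in 17, lost it in 11 and turned direction in 22, and those of other named genes in 695, 4, 212 and 8 cases. The cause of these changes was not tested, unless an alternative left out libraries. Pooling all 3 groups, the genes called were 5327, 1220 and 403 in OVA/LPS/Vehicle against PBS, GGsTop against vehicle and OVA/LPS/GGsTop against PBS. With a GC correction the first 2 were 2904 and 56. With a common median the second was 698 (344 higher and 354 lower), and with no minimum level the last was 208. With array weights the last 2 were 5214 and 2557, and in fits of 2 groups they were 3525 and 39. With 1 library left out, the 3 counts ran from 3064 to 6440, from 24 to 1052 and from 29 to 1597. Without the 3 libraries with thyroid RNA, the first was 4, and limma called 0 in the second (854 at an unadjusted p under 0.05), where the lone vehicle library was assumed to vary like the others. Without the 3 libraries lacking cartilage RNA, the first and the last were 3276 and 112.

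Members called, 1, 0 and 1 in the same order, were 2 and 1 in the first 2 comparisons with a pseudocount of 0.1, 3, 2 and 2 with array weights, 2 in the second in a fit of 2 groups, 0 in the first without the thyroid libraries, 0 in the first and the last without the libraries lacking cartilage RNA, and 0 to 3, 0 to 1 and 0 to 2 with 1 library left out. With the replicate block, OVA/LPS/GGsTop against PBS gave 95 genes and 2 members, and with the block and GC correction 2 members. The block added the call of Alox15, ended those of Il1rl1 and Muc5b and changed no other call of a named gene.

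These log2 fold changes turned direction. In OVA/LPS/Vehicle against PBS, Il5ra was -0.069 and Ear2 -0.15 after the GC correction, Ear2 was -0.032 without vehicle 78 (to 0.49 without vehicle 56), and without the thyroid libraries Siglecf was 0.078, Tg -0.30, Pth -0.068 and Ccl24 -0.059. In GGsTop against vehicle without the thyroid libraries, Il5ra was -0.25, Ear1 -0.28, Ear2 -0.44, Alox15 -0.32, Tg 0.19, Ccr3 -0.44, Cebpe -0.081 and Itgax -0.21. Without vehicle 56, Ear1 was -0.18, Ear2 -0.20 and Alox15 -0.020 (to 0.85 without GGsTop 3). Ear1 was -0.00021 without GGsTop 1 and -0.30 without GGsTop 3 (to 0.45 without GGsTop 4), Ear2 reached 0.32 without vehicle 78, Ccl24 was -0.082 without GGsTop 4 (to 0.25 without GGsTop 3), and without the libraries lacking cartilage RNA Ear1 was -0.54 and Ear2 -0.0097. In OVA/LPS/GGsTop against PBS, Siglecf was -0.037 without GGsTop 2 (to 0.26 without GGsTop 4), and Ear6 was -0.0086 after the GC correction, -0.0014 with the block and GC correction, -0.53 with array weights, -0.12 without PBS 2, -0.12 without PBS 3 (to 0.41 without PBS 1) and -0.073 without the libraries lacking cartilage RNA.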

Other observations

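Alox12e, a lipoxygenase gene of the lipoxygenase list, falls outside the rule for named genes and was chosen after its values were seen. It was 0.0940, 1.10 and 0.0760 FPKM in PBS 1, 2 and 3, 2.10, 2.82, 1.55 and 3.07 FPKM in OVA/LPS/Vehicle 12, 34, 56 and 78, and 3.38, 2.22, 0.179 and 6.36 FPKM in OVA/LPS/GGsTop 1 to 4. As with Alox15, PBS 2 was the highest PBS library and OVA/LPS/GGsTop 3 and 4 were the lowest and highest of their group.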
